A study of Mus musculus with 8 samples.

Results

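The prolactin receptor gene Prlr and 9 genes of the signalling chain beneath it were examined in luminal progenitors (LP) and mature luminal cells of the mouse mammary gland. The set comprised Prlr, the kinase genes Jak1 and Jak2, the transcription factor genes Stat3, Stat5a and Stat5b, and the inhibitor genes Socs1, Socs2, Socs3 and Cish. They were taken by name, through their Entrez Gene IDs, and make up 10 of the 24594 genes in the deposited count table. All 10 were found.

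Bulk RNA was sequenced from 4 LP and 4 mature libraries to define the expression programme of each fraction. Every library came from wild type C57BL/6J mice without treatment, and mice of the study were 12 to 20 weeks old. Glands were digested for 15 h, and luminal cells were sorted on EpCAM, CD49f, c-Kit and CD14, with antibodies to TER-119, CD31 and CD45 marking blood and endothelial cells. LP was the c-Kit high fraction and the mature cells, titled luminal differentiated in the labels, the c-Kit low fraction, so Kit expression is part of how the fractions were made, and Cd14 expression may be, since the labels name CD14 among the sorting markers. From each sample 500 pg of RNA was amplified to cDNA before library construction. The label descriptions give the LP and the mature library of each replicate number a shared identifier, but not what it stands for, and no label says that libraries came from separate animals. The study's methods name biological replicates for RNA sequencing, but fewer per condition than the 4 libraries deposited for each fraction. The p-values therefore measure the spread between these libraries.

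Prolactin binds a receptor of the cytokine receptor family that has no kinase activity of its own. The receptor carries JAK2, which phosphorylates STAT5 proteins; these then enter the nucleus and bind DNA, and among the genes they switch on are members of the SOCS family that shut the receptor down again. In the mammary gland this chain drives alveolar growth and milk protein synthesis, STAT5A being its main STAT there, whereas STAT3, which is activated downstream of the receptors for LIF, IL-6 and oncostatin M, is known for its role in the regression of the gland after weaning. In the gland without pregnancy the prolactin receptor is found mainly on hormone-sensing luminal cells.

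STAT5 dimers recognise the palindrome TTCNNNGAA, and promoter sequences of the set are shown because Cish is a textbook STAT5 target. Windows of 300 bases, reaching 250 bases before an annotated transcription start and 50 bases after it, were available from RefSeq (GRCm38.p6, the mm10 build) for 9 of the 10 genes, Socs2 being the exception. The palindrome reads the same on both strands, so a single search covers both. Of all 32851 windows, 8.3% held it at least once and 0.457% held it 2 or more times. The single Cish window held 2 copies, whose first bases lay 1 and 12 bases into the transcript. Prlr had 1 copy in 1 of its 3 windows, 110 bases before a start that lies inside the gene. Socs3 also had 1 copy, 154 bases before the start its window is built on, and its stretch is not printed. That start and the copy lie inside the annotated gene. Neither the Prlr match nor the Socs3 match is therefore upstream of the whole gene. Windows of Jak1, Jak2, Stat3, Stat5a, Stat5b and Socs1 held none. The stretches below carry the matches in capitals, read along the strand of the gene, and a match is a description of the letters only.
Cish, chr9:107296529-107296688, plus strand: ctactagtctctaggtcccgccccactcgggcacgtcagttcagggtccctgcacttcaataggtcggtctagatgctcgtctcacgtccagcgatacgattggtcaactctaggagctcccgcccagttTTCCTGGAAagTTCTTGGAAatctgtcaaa
Prlr, chr15:10223781-10223819, plus strand: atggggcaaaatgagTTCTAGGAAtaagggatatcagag

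A second sequence bears on how far Stat5a and Stat5b can be separated. These neighbouring genes on chromosome 11 point in opposite directions and are close copies. Reads were 51 bases long, and 598 stretches of that length occurred in transcripts of both genes, which is 15.1% of those of Stat5a and 10.9% of those of Stat5b. None were shared between either gene and Stat3. The longest run without a difference measured 324 bases, and its longest piece within 1 coding exon of each gene measured 152 bases. That piece lies in exon 8 of 20 of a Stat5a transcript at chr11:100874339-100874490 on the plus strand and in exon 7 of 19 of a Stat5b transcript at chr11:100798234-100798385 on the minus strand. The shared stretches were counted in spliced transcripts, whereas the aligner used, Bowtie2, does not split reads across introns. The percentages are therefore not the share of counted reads that match both genes. How such reads were counted is not given in the sources used here, so the separate Stat5a and Stat5b values are uncertain by an unknown amount.
Stat5a and Stat5b: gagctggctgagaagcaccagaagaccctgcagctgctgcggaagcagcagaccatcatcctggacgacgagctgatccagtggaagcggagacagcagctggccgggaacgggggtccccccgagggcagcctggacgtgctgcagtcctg

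The libraries held 5510863 to 7089597 counts for LP and 4410049 to 7791593 for mature cells. Levels are given as CPM, which are counts scaled to a common library size with TMM factors. Of all genes, 12816 passed the filter on low counts, among them 9 of the 10 genes of the set, and Socs1 did not pass. Mature replicate 3 stood apart from the other mature libraries. It had the highest sum of LP markers among them (966 CPM, with 244 to 715 in the others and 13574 to 20040 in LP) and the lowest sum of mature luminal markers (1151 CPM, with 1955 to 2458 in the others and 392 to 748 in LP). It also carried 18048 CPM of dissociation-response genes, against 4097 to 5017 in the other mature libraries and 1221 to 1916 in LP. Markers of other cells were sparse. Summed immune markers reached 11.1 to 14.5 CPM in LP and 7.87 to 9.53 CPM in mature cells, with 1 of 6, Cd3e, at 0 in every library. Endothelial markers summed to 3.05 to 8.63 and 0.984 to 8.08 CPM, with Kdr, 1 of 4, at 0 in every library. Basal markers summed to 4.02 to 17.5 and 7.09 to 49.4 CPM over 7 genes, the highest sum being that of mature replicate 3. Krt5 was at 0 in 3 LP and 2 mature libraries. Krt14 was at 1.16 to 3.02 CPM in LP and 1.58 to 18.6 CPM in mature cells. Acta2 was at 0 to 2.82 and 2.89 to 16.6 CPM, without overlap. Oxtr went the other way, at 1.11 to 11.9 and 0 to 3.18 CPM. Of the 7 basal markers 3 were tested, and 0 were called in either direction. Fibroblast markers, 5 genes, summed to 7.35 to 39.1 CPM in LP and 21.7 to 174 CPM in mature cells, where Dcn in mature replicates 1 and 2 made up most of the total. Their part in the results was not tested, and in bulk RNA fewer cells of a type and less RNA per cell cannot be told apart.

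The fractions differed most at the receptor. Prlr was about 10 times higher in mature cells, Cish and Stat3 were higher in LP, and Socs3 was higher in mature cells by a narrow margin, while Jak1, Jak2, Stat5a, Stat5b and Socs2 did not pass the test. Thus 4 of the 9 tested genes were called by edgeR's quasi-likelihood test at a Benjamini-Hochberg adjusted p under 0.05, 2 in each direction. Across all genes the test called 24.7%, 10.9% toward LP and 13.8% toward mature cells. The median log2 fold change, LP over mature, was -0.14 over the 9 genes and 0.00 over all tested genes. The share of the set called is above that background, but 4 of 9 is a count over a few genes. These genes were chosen with earlier results of these data known, so the comparison with the background is not independent of the data. Socs3, 1 of the 4, was called in only 7 of 16 alternatives.

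**Figure D1:**
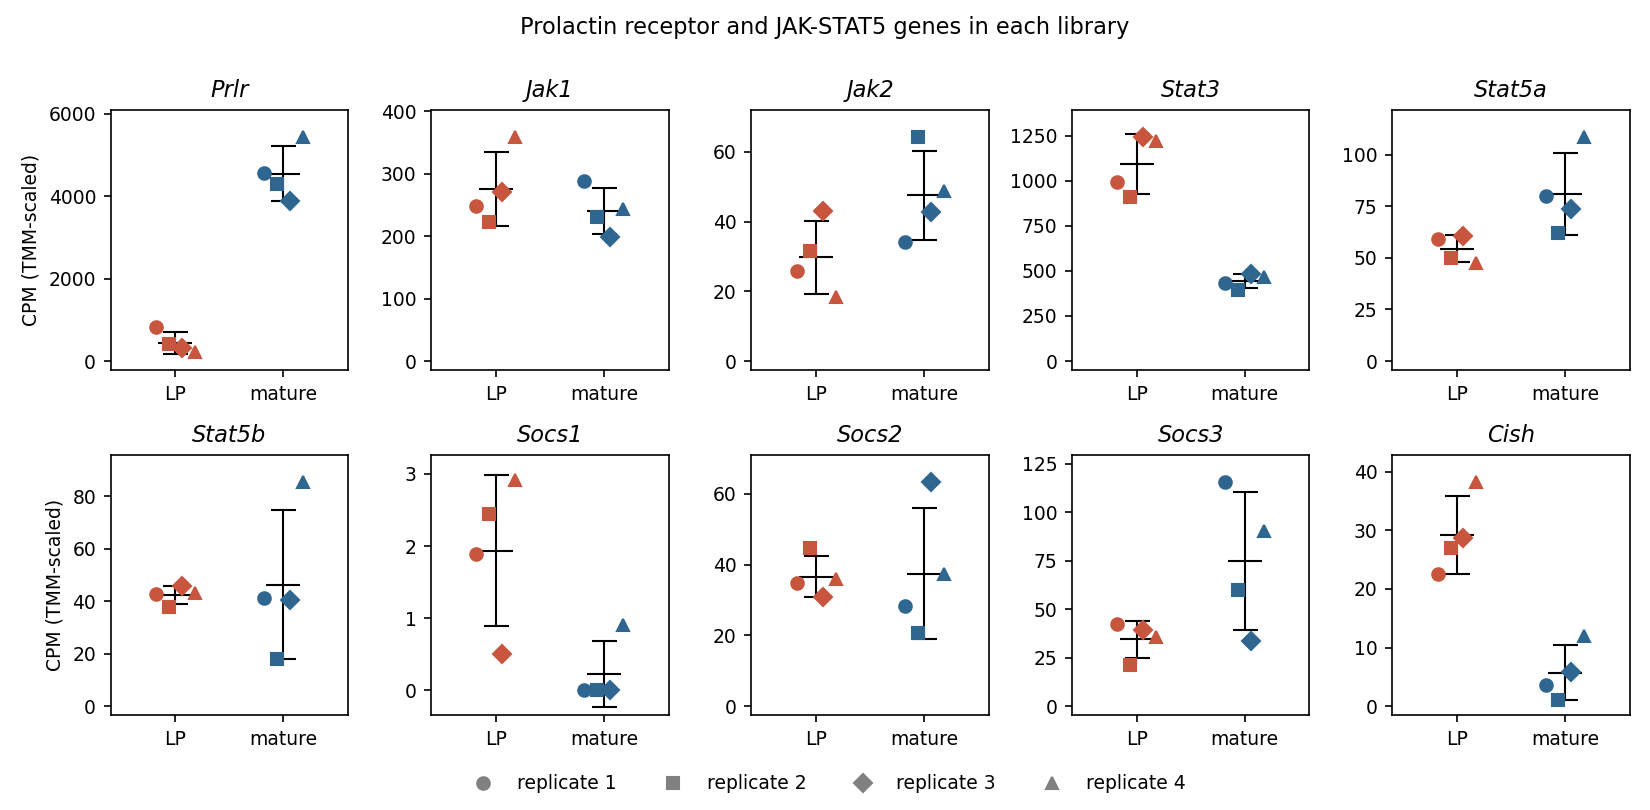
Each panel plots the TMM-scaled CPM of 1 gene in the 4 LP (red) and 4 mature (blue) libraries, with bars at the mean ± SD and a linear axis of its own scale. Prlr sits between 223 and 822 in LP and between 3875 and 5442 in mature cells, whereas Stat3 and Cish show the opposite order without overlap.

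Prlr (Entrez 19116), at chr15:10177238-10349190, encodes the receptor itself. Its level was 822, 408, 327 and 223 CPM in LP replicates 1 to 4 and 4561, 4305, 3875 and 5442 CPM in mature replicates 1 to 4. Every mature library lay far above every LP library, and the lowest mature value was 4.72 times the highest LP value. LP replicate 1 was the highest of the LP libraries, and the mature libraries lay close together. The LP mean of 445 ± 262 CPM (SD, n = 4) compared with 4546 ± 661 CPM (SD, n = 4) for mature cells, a 10.2-fold difference. The log2 fold change, LP over mature, was -3.35 with a standard error of 0.38 and an adjusted p of 0.000432 by edgeR's quasi-likelihood test. An exact two-sided permutation test of the log2 CPM gave p = 0.0286, the smallest p that 4 against 4 libraries allow. Here and below, this test treated all 8 libraries as exchangeable and ignored the identifier that same-numbered libraries share. Without mature replicate 3 the log2 fold change was -3.39. Prlr belongs to the mature gene set that the study defined on these libraries, so this is not independent evidence of its direction.

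The genes whose pattern over the 8 libraries came closest to that of Prlr were sought among 10039 tested genes with a mean of at least 3 log2 CPM. Each gene was centred on its own mean, and the root mean square difference in log2 CPM was taken as the measure. The nearest 5 were Arg1, which encodes a liver-type arginase, at 0.225, Tlcd4 and Cxcl15, both at 0.229, the claudin gene Cldn10, also at 0.229, and the progesterone receptor gene Pgr at 0.278. Pgr had 40.9, 24.2, 12.6 and 11.2 CPM in LP replicates 1 to 4 and 175, 140, 161 and 195 CPM in the mature replicates. For both Prlr and Pgr, LP replicate 1 was the highest LP library and mature replicate 4 the highest mature library. These genes were chosen for their likeness, which is a description over 8 libraries.

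The kinases gave no call. Jak2 (Entrez 16452, chr19:29251803-29313095) encodes the kinase bound to the prolactin receptor, and Jak1 (Entrez 16451, chr4:101151974-101265282) a kinase used by interferon and IL-6 family receptors. Jak2 was at 25.8, 31.5, 43.2 and 18.5 CPM in the LP libraries and at 34.2, 64.4, 42.9 and 48.8 CPM in the mature libraries. The groups overlapped, although the highest value was in a mature library and the lowest in an LP library. Its log2 fold change was -0.68 with a standard error of 0.29, a 95% interval of -1.31 to -0.04 not adjusted for the number of genes, and an adjusted p of 0.113 by edgeR's quasi-likelihood test. Of 16 alternatives only the fit without LP replicate 3 called Jak2, at -0.90 with an adjusted p of 0.0498 in edgeR's test, and the adjusted p reached 0.299 without mature replicate 2.

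Jak1 was at 248, 223, 270 and 359 CPM in LP and at 287, 231, 198 and 244 CPM in mature cells. The 2 groups covered much the same range. Its log2 fold change was 0.20 with a standard error of 0.19, a 95% interval of -0.22 to 0.61 and an adjusted p of 0.487 by edgeR's quasi-likelihood test. Jak1 overlaps Raver2, whose total of 93 counts over the 8 libraries compares with 13389 for Jak1.

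Among Stat3, Stat5a and Stat5b, only Stat3 (Entrez 20848, chr11:100886806-100939594) was called. Its level was 993, 911, 1244 and 1221 CPM in LP replicates 1 to 4 and 433, 392, 485 and 467 CPM in mature replicates 1 to 4. All LP libraries exceeded all mature libraries, the lowest LP value being 1.88 times the highest mature value. The means were 1092 ± 166 CPM (SD, n = 4) and 444 ± 40.8 CPM (SD, n = 4), a 2.46-fold difference. The log2 fold change was 1.30 with a standard error of 0.17 and an adjusted p of 0.000742 by edgeR's quasi-likelihood test, and 1.37 without mature replicate 3. The exact permutation test gave p = 0.0286. Stat3 is in the LP gene set that the study derived from these libraries, so its direction is not independent evidence.

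Stat5a (Entrez 20850, chr11:100859351-100885169), the main STAT of the prolactin response in the gland, was at 59.4, 50.03, 60.4 and 47.4 CPM in LP and at 80.0, 62.3, 73.5 and 109 CPM in mature cells. The ranges did not overlap, but the lowest mature value exceeded the highest LP value by only a factor of 1.03. Its log2 fold change of -0.58, with a standard error of 0.20, had an adjusted p of 0.0535 by edgeR's quasi-likelihood test and an exact permutation p of 0.0286. Of 16 alternatives 3 called it. These were DESeq2's Wald test with an adjusted p of 0.0459, edgeR's likelihood ratio test with 0.0384 and edgeR's quasi-likelihood test without mature replicate 2 with 0.0404. The adjusted p rose to 0.159 without mature replicate 4 and to 0.213 with library totals alone in edgeR's quasi-likelihood test.

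Stat5b (Entrez 20851, chr11:100780731-100859004), its close copy, which is the main STAT of the growth hormone response in liver, was at 42.5, 37.7, 45.7 and 43.1 CPM in LP and at 41.2, 17.9, 40.4 and 85.4 CPM in mature cells. The mature libraries spread on both sides of the narrow LP range. Its log2 fold change was -0.14 with a standard error of 0.37, a 95% interval of -0.95 to 0.68 and an adjusted p of 0.823 by edgeR's quasi-likelihood test. The sign turned to 0.37 without mature replicate 4. With both genes summed into 1, so that it does not matter which of them a read was counted for, the log2 fold change was -0.40 with an adjusted p of 0.251 in the same test. Reads that match both and were left out of the counts, if any, are not restored by the sum.

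The balance between STAT genes can be read within a library, where it does not depend on scaling. The ratio of Stat3 counts to the sum of Stat5a and Stat5b counts was 9.75, 10.4, 11.7 and 13.5 in LP replicates 1 to 4 and 3.57, 4.90, 4.26 and 2.41 in mature replicates 1 to 4. Every LP library had the higher ratio, on average 11.3 ± 1.65 (SD, n = 4) against 3.78 ± 1.07 (SD, n = 4). The ratio of Stat5a to Stat5b counts, 1.10 to 1.40 in LP and 1.27 to 3.49 in mature cells, overlapped.

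**Figure D2:**
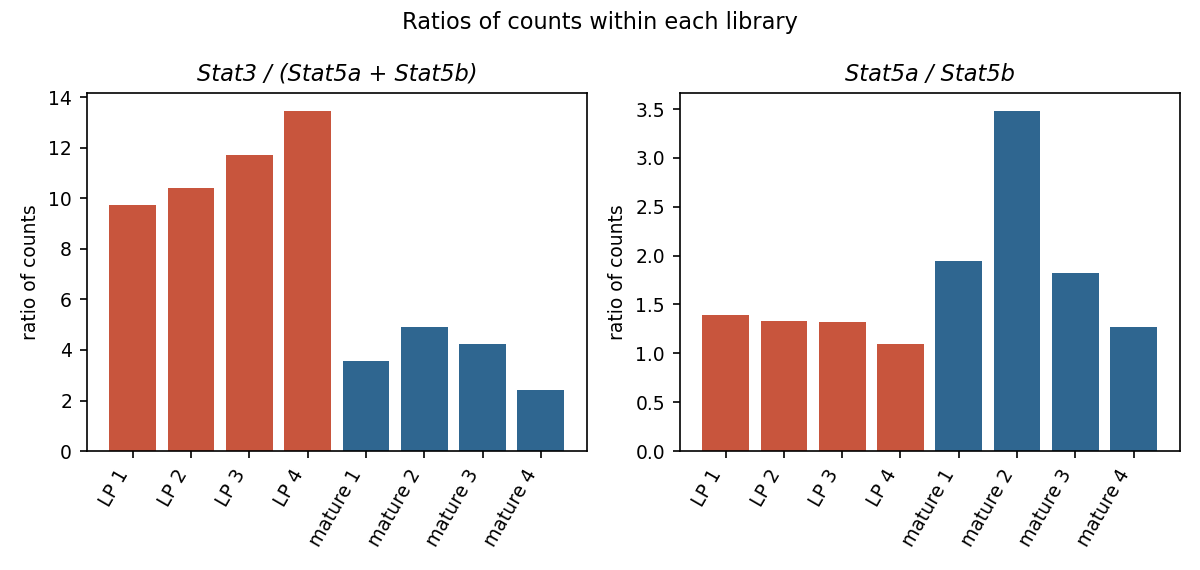
Bars give the ratio of Stat3 counts to Stat5a plus Stat5b counts (left) and of Stat5a to Stat5b counts (right) in each of the 8 libraries, from 0. The left ratio is 9.75 or more in every LP library and 4.90 or less in every mature library, and in the right panel mature replicate 2 reaches 3.49.

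Of the inhibitor genes, Cish was called higher in LP and Socs3 higher in mature cells, while Socs2 was not called and Socs1 was not tested. Cish (Entrez 12700, chr9:107296659-107302784), which encodes the cytokine-inducible SH2 protein that blocks STAT5 docking and whose start region is printed above, was at 22.5, 27.0, 28.7 and 38.3 CPM in LP and at 3.66, 1.05, 5.92 and 12.1 CPM in mature cells. All LP values were higher, and the lowest was 1.87 times the highest mature value. The means were 29.1 ± 6.64 CPM (SD, n = 4) and 5.67 ± 4.70 CPM (SD, n = 4), a 5.14-fold difference. Its log2 fold change was 2.33 with a standard error of 0.54 and an adjusted p of 0.0107 by edgeR's quasi-likelihood test, with p = 0.0286 in the exact permutation test. Without mature replicate 3 it was 2.36, with an adjusted p of 0.0201 in edgeR's test. Cish was sparse in mature replicates 1 to 4, at 26, 4, 41 and 80 counts. Without replicate 2, the lowest of them, the log2 fold change was 2.03 with an adjusted p of 0.0114 in edgeR's test.

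Socs3 (Entrez 12702, chr11:117966079-117970336), whose protein inhibits JAKs at receptors that contain gp130, was at 42.3, 21.0, 39.0 and 35.5 CPM in LP and at 116, 59.9, 33.5 and 90.1 CPM in mature cells. Mature replicate 3 fell among the LP values, and the other mature libraries lay above all of them. The log2 fold change was -1.12 with a standard error of 0.36 and an adjusted p of 0.0426 by edgeR's quasi-likelihood test, whereas the exact permutation test gave p = 0.114. Without mature replicate 3 it was -1.34 with an adjusted p of 0.0079 in edgeR's test. Leaving out any other library raised the adjusted p to between 0.0566 and 0.130, so the call did not hold there. The smallest of these changes, -0.81, was without mature replicate 1. The summed level of dissociation-response genes was higher in every mature library than in any LP library, and its part in the Socs3 difference was not tested.

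Socs2 (Entrez 216233, chr10:95383903-95417321), an inhibitor of growth hormone signalling, was at 34.7, 44.6, 30.9 and 35.9 CPM in LP and at 28.4, 20.8, 63.4 and 37.2 CPM in mature cells. The mature libraries again lay on both sides of the LP libraries. Its log2 fold change of -0.04, with a standard error of 0.31, had a 95% interval of -0.74 to 0.66 and an adjusted p of 0.942 by edgeR's quasi-likelihood test, and it became 0.36 without mature replicate 3.

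Socs1 (Entrez 12703, chr16:10783808-10785536), an inhibitor of interferon and other JAK signals, was too sparse for the test. LP replicates 1 to 4 held 13, 17, 3 and 21 counts, and mature replicates 1 to 4 held 0, 0, 0 and 6. The sums were 54 and 6 counts, and LP replicate 3 lay below mature replicate 4 in counts. A library with 0 counts still allows a level of up to 3 counts, which corresponds to 0.421 to 0.786 CPM in mature replicates 1 to 3. With the filter removed, edgeR's quasi-likelihood test gave a log2 fold change of 2.99 with a standard error of 1.29 and an adjusted p of 0.1499, and the exact permutation test on log2(CPM + 1) gave p = 0.0571. Without mature replicate 4, the only mature library with counts, Socs1 passed the filter. It was then called higher in LP by edgeR's quasi-likelihood test, with every remaining mature library at 0 counts.

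**Figure D3:**
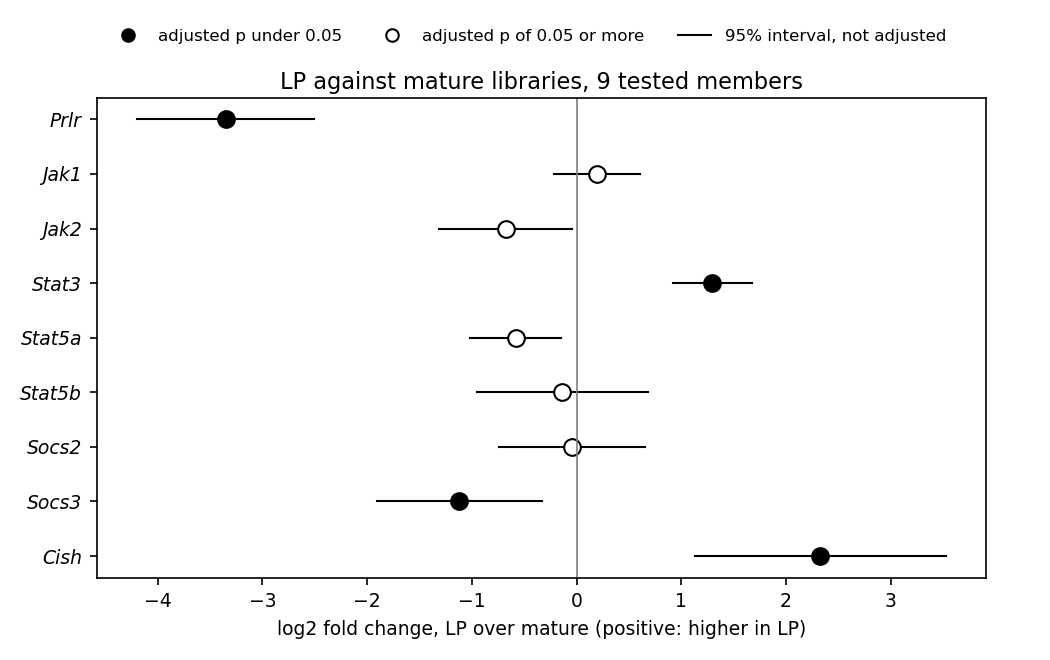
Points give the log2 fold change, LP over mature, of the 9 tested genes by edgeR's quasi-likelihood test, lines the 95% interval not adjusted for the number of genes, and filled points an adjusted p under 0.05. Prlr at -3.35 and Cish at 2.33 mark the ends, and the intervals of Jak1, Stat5b and Socs2 include 0.

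By whether libraries overlapped, 4 of the 9 tested genes separated the fractions, with Stat3 and Cish higher in LP and Prlr and Stat5a higher in mature cells. Over all tested genes 29.5% did so, 14.0% toward LP and 15.5% toward mature cells.

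Levels of different genes were compared as CPM per kilobase of merged exons. Reads were aligned without splitting across introns, so reads over exon junctions may be missing. The lengths were not adjusted for this, and its part in the order of the genes was not tested. In mature cells Prlr ranked first at 352 ± 51.2 CPM per kilobase (SD, n = 4), followed by Stat3 at 71.3 ± 6.55 and Jak1 at 48.9 ± 7.49. Neither Prlr and Stat3 nor Stat3 and Jak1 overlapped between libraries. Below them came Socs3 at 29.3, Stat5a at 20.4, Socs2 at 13.9, Jak2 at 9.45, Stat5b at 8.35, Cish at 1.55 and Socs1 at 0.0777 CPM per kilobase, and each neighbour in that order overlapped the next.

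In LP the order of these per-length levels began with Stat3 at 175 ± 26.6 CPM per kilobase (SD, n = 4), ahead of Jak1 at 56.1 ± 12.1 and Prlr at 34.5 ± 20.3. Stat3 lay apart from Jak1, whereas Jak1 and Prlr overlapped. Stat5a at 13.7, Socs2 at 13.5, Socs3 at 13.5, Cish at 7.99, Stat5b at 7.63 and Jak2 at 5.91 CPM per kilobase formed a graded group in which neighbours overlapped, and which lay apart from Prlr above it and from Socs1, at 0.666, below it. Thus Prlr passed from rank 3 in LP to rank 1 in mature cells, and Cish from rank 7 to rank 9.

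**Figure D4:**
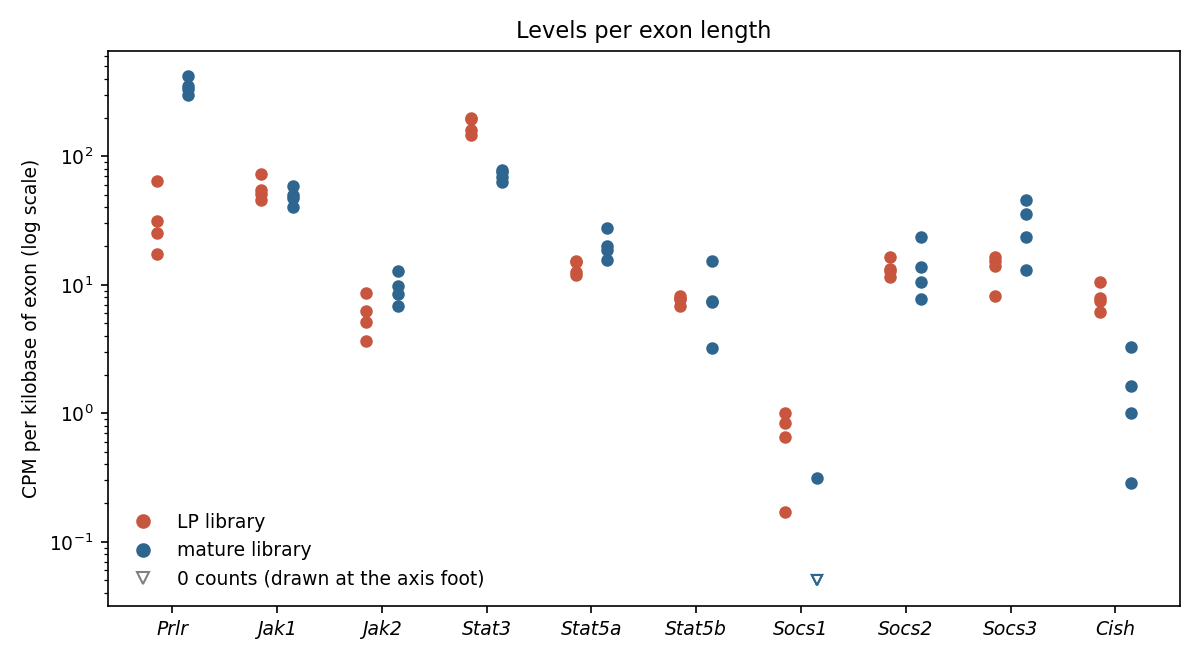
CPM per kilobase of exon, on a log axis, is plotted for each library and gene, LP in red and mature in blue, with libraries at 0 counts drawn as open triangles at the foot. In mature cells Prlr has the highest level, 300.2 or more, and in LP Stat3, at 146 or more.

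The wider pathway was followed in 7 lists of 73 genes, of which 55 passed the filter. Of these, 16 were called toward LP and 9 toward mature cells by edgeR's quasi-likelihood test at an adjusted p under 0.05, and 30 were not called. Over all tested genes 24.7% were called, 10.9% toward LP and 13.8% toward mature cells, and the lists' counts that follow stand beside these shares. The median log2 fold change was 0.31. Osmr and Il4ra stand in 2 lists, and Elf5 and Cd14 are also LP markers.

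**Figure D5:**
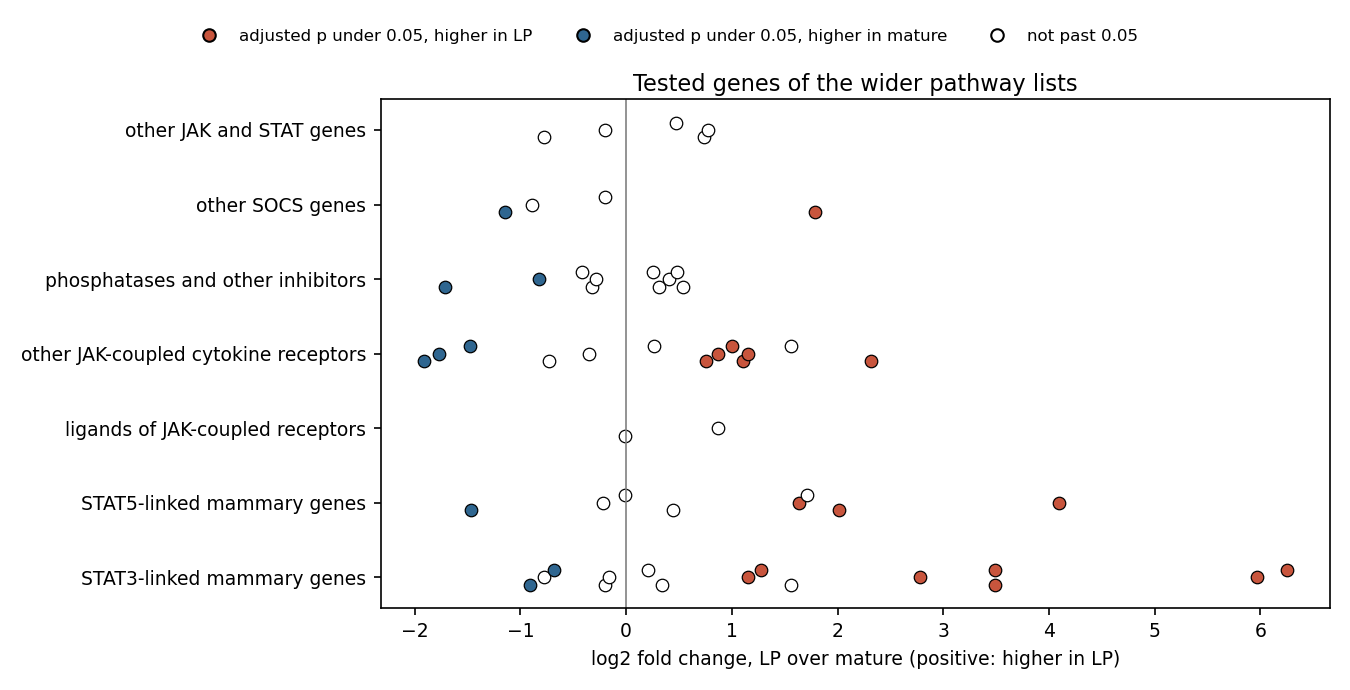
Each point is 1 tested gene of a pathway list at its log2 fold change, LP over mature, by edgeR's quasi-likelihood test, with filled points for an adjusted p under 0.05 (red, higher in LP; blue, higher in mature). Cd14, at 6.25 among the STAT3-linked genes, lies farthest to the right and Il6ra, at -1.91 among the receptors, farthest to the left.

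Of the other JAK and STAT genes, Jak3, Tyk2, Stat2, Stat4 and Stat6 were tested. By edgeR's quasi-likelihood test 0 of these 5 were called and 2, Stat4 and Stat6, had an unadjusted p under 0.05, whereas DESeq2 called 1, Stat6, and edgeR's likelihood ratio test 0. Stat6, the STAT of IL-4 and IL-13 signalling, was at 71.7, 61.4, 101 and 80.2 CPM in LP and at 70.3, 40.7, 27.1 and 50.6 CPM in mature cells. Mature replicate 1 lay among the LP values, and the other mature libraries lay below them. The log2 fold change of Stat6 was 0.73 with a standard error of 0.28 and an adjusted p of 0.0792 by edgeR's quasi-likelihood test, and of 0.0490 by DESeq2's Wald test. The list's median log2 fold change was 0.47.

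Of the 4 other SOCS genes, Socs5, an inhibitor linked to EGF receptor and IL-4 signalling, was higher in LP at a log2 fold change of 1.78 (edgeR adjusted p of 0.000587). Socs5 is, like Stat3, in the LP gene set defined on these libraries. Socs4 was higher in mature cells at -1.15 (edgeR adjusted p of 0.0438), although LP replicate 3, at 29.1 CPM, all but met mature replicate 3, at 29.2 CPM. Socs6 and Socs7 were not called. Of 10 phosphatases and other inhibitors, 2 were higher in mature cells and 8 were not called. Ptpn1, which encodes the phosphatase PTP1B that acts on JAK2, was at 53.6 to 122 CPM in LP and 228 to 372 CPM in mature cells, a log2 fold change of -1.71 (edgeR adjusted p of 0.00127). Btrc, the ubiquitin ligase subunit that recognises the prolactin receptor for its degradation, was at 164 to 175 CPM and 243 to 345 CPM, a log2 fold change of -0.83 (edgeR adjusted p of 0.00361). The fractions did not overlap for either gene.

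The other cytokine receptors divided. Of 13 tested among 17 listed, 6 were higher in LP, 3 higher in mature cells and 4 were not called. The interferon gamma receptor gene Ifngr1 was at 309, 275, 414 and 569 CPM in LP and 71.6, 70.1, 76.7 and 95.2 CPM in mature cells, with no overlap and a log2 fold change of 2.32 (edgeR adjusted p of 0.000298). The other 5 called higher in LP were the interferon receptor genes Ifngr2, Ifnar1 and Ifnar2, the oncostatin M receptor gene Osmr and Il10rb, with log2 fold changes between 0.76 and 1.15. All of these genes separated the libraries without overlap.

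Higher in mature cells were the receptor genes for LIF, IL-6 and IL-13. Lifr was at 180, 112, 50.5 and 77.6 CPM in LP and 403, 309, 372 and 346 CPM in mature cells, a log2 fold change of -1.77 (edgeR adjusted p of 0.00368). Fibroblast marker sums were highest in mature replicates 1 and 2, at 135 and 174 CPM, and their part in the receptor values was not tested. Il13ra1 was at 183 to 206 CPM and 275 to 665 CPM, a log2 fold change of -1.48 (edgeR adjusted p of 0.00236). Il6ra was at 2.64 to 9.58 CPM and 7.94 to 40.8 CPM, so the fractions overlapped, with a log2 fold change of -1.91 (edgeR adjusted p of 0.031). The growth hormone receptor gene Ghr, the closest relative of Prlr in function, was at 36.6 to 61.1 CPM in LP and 33.8 to 47.3 CPM in mature cells and was not called, with a log2 fold change of 0.26 (edgeR adjusted p of 0.415). Ghr is named for that relation to Prlr and not for its value.

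Most of the ligand genes had no counts in these cells. Of 9, Prl, Gh, Prl3b1, Prl3d1, Osm and Lep had 0 counts in every library, and Il6 was too low for the test. Lif, at 4.98 to 24.4 CPM in LP and 12.3 to 21.8 CPM in mature cells, and Ctf1, at 25.9 to 33.2 CPM and 8.58 to 28.2 CPM, were tested and not called. Prolactin and growth hormone are made in the pituitary, and the placental lactogens Prl3b1 and Prl3d1 in pregnancy.

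Among STAT5-linked mammary genes, 8 of 15 passed the filter, and 3 of them were higher in LP, 1 higher in mature cells and 4 not called. The casein gene Csn3 was at 6087, 8654, 2128 and 6215 CPM in LP and 98.9, 227, 673 and 348 CPM in mature cells, with no overlap and a log2 fold change of 4.10 (edgeR adjusted p of 0.00122). The other milk protein genes of the list, Csn1s1, Csn1s2a, Csn1s2b, Csn2 and Wap, were too low for the test. Elf5, which encodes the transcription factor of alveolar cells, had a log2 fold change of 2.02 (edgeR adjusted p of 0.00524) and Id2 one of 1.64 (edgeR adjusted p of 0.00172). Bcl6, a repressor gene whose product competes with STAT5 at shared sites, was the gene higher in mature cells, at 32.6 to 40.6 CPM in LP and 83.3 to 122 CPM in mature cells, a log2 fold change of -1.46 (edgeR adjusted p of 0.000479). The list's median of 1.04 covers the 8 tested genes only.

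All 15 STAT3-linked mammary genes were tested, and 7 were higher in LP, 2 higher in mature cells and 6 not called, with a median of 1.15. The 4 with the largest changes were Cd14 at 6.25 (edgeR adjusted p of 0.000104), whose protein the labels name among the sorting markers, the IGF-binding protein gene Igfbp5 at 5.97 (edgeR adjusted p of 0.00183), the PI3 kinase regulatory subunit gene Pik3r1 at 3.49 (edgeR adjusted p of 0.000104) and Lrg1, also at 3.49 (edgeR adjusted p of 0.000224). Pik3r1 stood at 711 to 1007 CPM in LP and 52.3 to 103 CPM in mature cells. Bcl3 and Myc were the pair higher in mature cells. Of the dissociation-response genes, 10 of 11 were tested, and 6 were higher in mature cells and 4 were not called.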

How the data were processed

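RNA was sequenced as 51-base reads from 4 LP and 4 mature libraries. The authors trimmed reads with cutadapt (4.2 in the submitters' processing notes), aligned them to mm10 with Bowtie2 (2.3.5.1 in those notes, whereas the study's methods name another version), and deposited raw counts per gene as whole numbers without normalization. The counting program and annotation are not given in the sources used here. Bowtie2 does not split reads across introns.

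Counts were analysed in R 4.3.3 with edgeR 4.0.16 (filterByExpr, TMM, glmQLFit and glmQLFTest, Benjamini-Hochberg adjustment over all 12816 genes tested), after a test on simulated data. The standard error was the absolute log2 fold change over the square root of F. DESeq2 1.42.0 and 15 other fits served as alternatives. Of 24594 IDs, 24570 matched RefSeq, which gave symbols and positions. Per-length levels used merged exons of GENCODE transcripts linked to RefSeq in place of RefSeq exons. The members and lists were chosen with earlier results of these data known, and some list genes are not reported here. Named genes were all members, up to 4 called genes of largest change per list and the 5 genes nearest to Prlr. Same-fraction libraries differed by a chi-square per degree of freedom of 11.9 to 89.0, so none was a copy. Floors cover counting error only.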

Additional observations from a re-analysis of the deposited data

Results flagged for a closer look

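Among 52 groups of 4 libraries examined for 1 value far from the other 3, 1 was flagged, and chance alone gives about 1 in 20. Socs1 in mature replicate 4 stood at 0.904 CPM, from 6 counts, while the other mature libraries were at 0. With the other 3 values at 0 any level above 0 is flagged, so the flag says nothing about its size.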

How the results depend on the processing

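Of 143 log2 fold changes of the 9 tested members over 16 alternatives, 122 kept their direction and side of the threshold. Prlr (-3.83 to -3.13) and Stat3 (1.23 to 1.48) were called in all 16 and Cish (2.03 to 3.003) in all 15 that tested it. Socs3 was called in 7 of 16 and was lost with no filter (-1.05, adjusted p 0.0657) and with library totals alone (-0.93, adjusted p 0.0833). With at least 10 counts in every library 1 member was higher in LP, since Cish was not tested. With no filter, and with library totals alone, which were added after seeing the data and moved the median of all genes to 0.19, 1 member was higher in mature cells. Leaving out single libraries gave 1 to 2 members, and 5 to 9 pathway list genes, higher in mature cells, the 5 without LP replicate 2, LP replicate 4 or mature replicate 1. The same fits gave 2 members higher in LP, except that without mature replicate 4, which gave 3, the added member being Socs1. Stat5b turned to 0.060 with the replicate block, 0.37 without mature replicate 4 and 0.023 with library totals alone. Socs2 turned to 0.012 with no filter, 0.066 with the block, 0.04 without LP replicate 3, 0.36 without mature replicate 3 and 0.13 with library totals alone. With single libraries left out Stat5b ranged from -0.38 to 0.37 and Socs2 from -0.22 to 0.36. The cause was not tested. The block called 3027 genes in place of 3161 and changed no member's call; of the pathway list genes it called 17 toward LP and 8 toward mature cells in place of 16 and 9. Same-numbered libraries share an identifier of unstated meaning, and their deviations from the group means correlated at 0.113, 0.0618, 0.148 and 0.0844 across genes, in each case the highest for that LP library; mature replicate 2 correlated best with LP replicate 1. With the longest transcript as the length, the level of Prlr in mature cells moved to 459, of Socs2 in LP to 16.4 and of Cish in LP to 10.2 CPM per kilobase. Depth limits Socs1 most, with 60 counts in all.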
